A study of Mus musculus with 6 samples.

Results

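Cytosolic ribosomal proteins were followed in haematopoietic stem cell-enriched mouse bone marrow with and without a pair of NR4A nuclear receptors. Members were the probe sets annotated to 1 gene symbol that names a protein of the large subunit (Rpl, Rplp0 to Rplp2) or the small subunit (Rps, Rpsa) of the cytosolic ribosome. The rule used symbols alone and no measured value. It found 94 of 45037 probe sets and 42 of 18193 genes, 22 of the large and 20 of the small subunit. RNA came from sorted cells without lineage markers and with Sca1, of wild-type mice (WT) and of mice lacking Nr4a1 and Nr4a3 (double knockout, DKO), all 2 to 3 weeks old. Each group had 3 Affymetrix arrays, and each array held a pool of 10 to 20 mice, and replicates are therefore separate pools. The DKO line was bred from the single Nr4a1 and Nr4a3 knockouts on a C57BL/6 and 129SvJ hybrid background, while the labels name no strain for WT. Signals below are the authors' linear MAS5 signals, and differences are DKO minus WT on the log2(signal + 16) scale with standard errors.

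The cytosolic ribosome joins a large subunit, which forms peptide bonds, to a small subunit, which reads the messenger RNA. Most of its proteins are made in equal number, and their messages typically begin with a terminal oligopyrimidine (TOP) tract, a C followed by a run of C and T at the cap. The growth kinase complex TORC1 and the binding protein LARP1 control translation of TOP messages through this tract. Blood formation is known to be sensitive to the dose of ribosomal proteins, as inherited loss of 1 copy of genes such as Rps19, Rpl5 or Rpl11 causes Diamond-Blackfan anaemia. Haematopoietic stem cells are known for a low rate of protein synthesis compared with their progeny.

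Start sites were searched for the TOP tract. In RefSeq promoter sequences (GRCm38.p6), 37 of the 42 genes were found. A C followed by at least 4 bases that are each C or T stood exactly at an annotated start in 8 of the 37 (21.6%), against 3.01% of 27025 genes in the table. A tract that began within 5 bases of a start occurred in 18 of 37 (48.6%) and 21.2% of all genes. Annotated starts can lie some bases away from the true cap site, so an absent tract says little. Below are the 7 measured members with the tract at the start, and then Rps9 and Rps25, the genes with the largest differences in each direction. Each line gives 20 bases before the start and 15 from it, 5′ to 3′ on the gene's strand, with the pyrimidine run in capitals. The bases from the annotated start are the first of the annotated transcript, in its first exon.
Rpl14, chr9:120571497-120571531, plus strand: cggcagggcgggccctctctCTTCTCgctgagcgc
Rpl35, chr2:39005117-39005151, minus strand: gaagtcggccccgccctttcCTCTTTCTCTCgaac
Rpl38, chr11:114668560-114668594, plus strand: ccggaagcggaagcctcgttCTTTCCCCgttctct
Rplp2, chr7:141447631-141447665, plus strand: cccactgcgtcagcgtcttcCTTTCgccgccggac
Rps6, chr4:86857353-86857387, minus strand: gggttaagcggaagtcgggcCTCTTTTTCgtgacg
Rps10, chr17:27635230-27635264, minus strand: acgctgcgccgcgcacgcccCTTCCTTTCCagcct
Rps18, chr17:33955651-33955685, minus strand: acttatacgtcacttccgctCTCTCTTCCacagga
Rps9, chr7:3704021-3704055, plus strand: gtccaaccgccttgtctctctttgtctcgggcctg
Rps25, chr9:44407694-44407728, plus strand: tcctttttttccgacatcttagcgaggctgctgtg
The run at the start was longest in Rpl35, with 11 bases, and shortest in Rplp2, with 5. The letters AAAGGTCA, the element bound by NR4A monomers, or their reverse complement TGACCTTT, were in 0 of 37 member promoters (250 bases before to 50 after the start) and in 1.70% of all genes' promoters.

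The Nr4a1 signal, which checks the labels, was 1111, 1269 and 816 in WT and 8.0, 22.4 and 33.8 in DKO, while the 3 Nr4a3 probe sets did not pass the filter on low values. The markers of stem and early progenitor cells were present in all arrays, with 9 of 10 measured genes lower in DKO, 5 of them past the threshold. Ly6a, which encodes the sort marker Sca1, is not analysed here. Markers of mast cells, basophils and eosinophils (11 of 11 higher, 7 rose) and of T and NK cells (10 of 10 higher, 7 rose) were higher in DKO. Their summed signals were 1594 to 12914 in WT and 26123 to 32530 in DKO for the first, and 758 to 1613 and 9786 to 14509 for the second. Monocyte, macrophage and dendritic cell markers held 5 that rose of 11. Their summed signals were 9154 to 28058 in WT and 19534 to 22757 in DKO. B lineage and plasma cell markers held 2 that rose and 1 that fell of 9, with 7 lower in DKO. Their median difference was -1.04, and the differences ran from -2.32 to 4.99. Summed over 10 genes, tested or not, their signals were 3943 to 11575 in WT and 19606 to 45883 in DKO. Neutrophil and erythroid markers held 0 and 1 calls and were highest in WT replicate 2. A change in the mix of cells and a change in RNA per cell cannot be told apart in these pools, and the part of the mix in the ribosomal values was not tested.

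Of the 42 genes, 39 passed the filter on low values, 21 of the large and 18 of the small subunit. Rpl37, Rps16 and Rps27 did not pass and are not compared. Their single-symbol probe sets read 12.1 to 27.6 (Rpl37), 0.60 to 1.70 (Rps16) and 21.3 to 103 (Rps27), too dim on average for the filter, whose limit was a signal of about 53.2. The full ribosome has 79 proteins in the roster used, of which 27 had only probe sets annotated to several symbols and 8 were not in the annotation used here. Those genes are not named with values, and Fau and Rps3a1, 2 small subunit genes whose symbols fall outside the rule, are given below. A gene is represented by its brightest probe set. Ribosomal protein genes have many processed pseudogenes, and 41.9% of the 86 tested member probe sets carry the suffix that marks possible binding of unrelated transcripts, against 6.02% of all tested probe sets.

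No ribosomal protein gene passed the threshold in DKO cells. Of the 39 tested, 0 rose and 0 fell (limma, adjusted p under 0.05), against 1.71% of all 11529 genes tested (1.08% higher and 0.633% lower). At an unadjusted p under 0.05 there were 3, Rpl11, Rps9 and Rps25, against 16.3% of all genes. Differences leaned slightly below 0, with 29 of 39 lower in DKO (74.4%), against 50.8% of all genes. The median was -0.09 for the large subunit and -0.20 for the small subunit, beside -0.01 over all genes. For 20 of the 39 the 95% interval of the difference lay within 0.5 of 0, as it did for 5.26% of all genes, and for 36 it lay within 1 of 0, against 43.5% of all genes. The 3 genes whose interval reached past 1 were Rps9, Rps25 and Rpl39. At the brightest probe set a change in signal of a whole log2 unit was therefore outside the interval for 36 of the 39 genes. How closely signal follows RNA at very bright probe sets was not tested. Smaller changes were resolved for fewer of them. Other probe sets could differ, as intervals at dim ones of Rpl41 (0.09 to 2.36) and Rps20 (0.05 to 2.12) reached past 1.

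**Figure D1:**
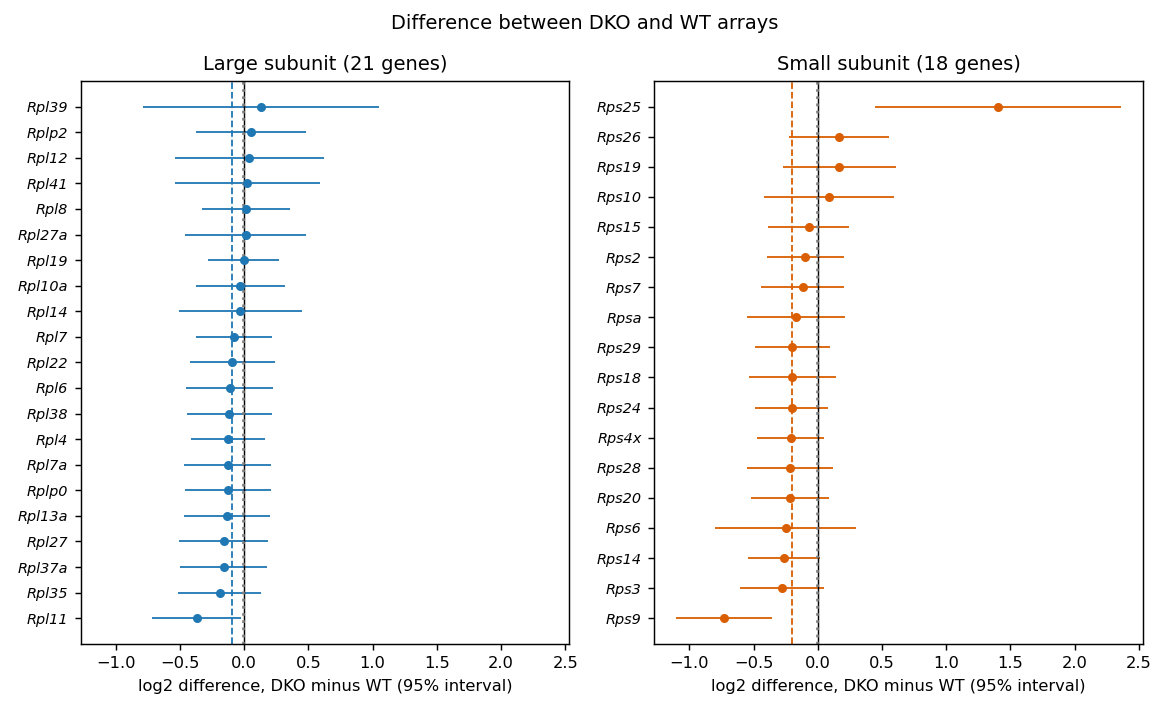
Log2 difference, DKO minus WT, of 21 large and 18 small subunit genes, with 95% intervals from limma on 3 against 3 arrays. Dashed lines mark the subunit medians (-0.09 and -0.20) and the dotted grey line the median of all genes (-0.01); Rps9 and Rps25 lie farthest from 0.

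In the large subunit, the stalk proteins, which recruit elongation factors, lay close to 0. Rplp0, the base of the stalk, had signals of 9624, 8780 and 12258 in the WT arrays and of 9532, 9175 and 9071 in the DKO arrays, which overlapped (-0.13 ± 0.15, adjusted p = 0.765). Rplp2, an acidic protein of the stalk tip, was at 8041, 10694 and 11262 in WT and 7693, 12180 and 11504 in DKO (0.05 ± 0.20, adjusted p = 0.942). Rpl12, which anchors the stalk, differed by 0.04 ± 0.27 at a dim probe set of 756 to 1334. Rplp1 had no single-symbol probe set.

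The lowest difference within the large subunit was that of Rpl11, which with Rpl5 and the 5S RNA forms a particle that can bind Mdm2 and so restrain the breakdown of p53. Its signals were 14968, 14786 and 17757 in WT and 11524, 10447 and 15174 in DKO. DKO replicates 1 and 2 were below all WT arrays, but DKO replicate 3 lay among them. The difference was -0.37 ± 0.16 and did not pass (adjusted p = 0.321). Rpl5 had no single-symbol probe set. The 7 measured genes of the list of p53 and its targets held 0 calls and had a median of 0.03. Mdm2 itself was at -0.18 (adjusted p = 0.715). The smallest p in that list belonged to Cdkn1a, the cell cycle inhibitor, at -0.36 (adjusted p = 0.585), and to the stress protein gene Sesn2 at 0.84 (adjusted p = 0.593), a dim probe set that ranged from -0.92 without WT replicate 3 to 1.25 without WT replicate 2.

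Proteins around the exit tunnel, where the new chain leaves the ribosome, differed little. Rpl35 at the tunnel rim was at 24384, 25942 and 26026 in WT and 17897, 22769 and 27167 in DKO. Its DKO arrays spanned the WT range on both sides (-0.19 ± 0.15, adjusted p = 0.605). Rpl4, whose loop lines the tunnel, was at -0.12 ± 0.13 and Rpl19 at -0.0049 ± 0.13. Rpl39, a short protein inside the tunnel, had the dimmest measured probe set, with 445, 491 and 157 in WT and 377, 332 and 373 in DKO. Its difference was 0.13 ± 0.42 (adjusted p = 0.931), and -0.36 without the low WT replicate 3.

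Among other large subunit genes, Rpl38, a surface protein known for its part in translating Hox messages, had the brightest probe set. It was at 25842, 27761 and 28399 in WT and 20535, 24561 and 31774 in DKO (-0.12 ± 0.15, adjusted p = 0.790). Its DKO arrays again held both the lowest and the highest of the 6 values. Rpl22, a protein that binds RNA and is needed for T cell development, was at 17975, 21477 and 22630 in WT and 16132, 19284 and 23097 in DKO (-0.09 ± 0.15). Its second probe set gave 13262, 14551 and 16103 in WT and 10876, 12174 and 12577 in DKO. There the groups did not overlap (-0.30 ± 0.13, adjusted p = 0.337). Rpl37a (-0.16 ± 0.16), Rpl27 (-0.16 ± 0.16), Rpl13a (-0.13 ± 0.15), Rpl7a (-0.13 ± 0.16), Rpl6 (-0.11 ± 0.15), Rpl7 (-0.08 ± 0.14), Rpl14 (-0.03 ± 0.22) and Rpl10a (-0.03 ± 0.16) were lower without passing. Rpl27a, Rpl8 and Rpl41 were at 0.01, 0.02 and 0.02. At the brightest probe set the groups overlapped in all 21 large subunit genes, where 22.0% of all genes tested had groups that did not overlap.

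In the small subunit, 4 of 18 genes had groups that did not overlap, each lower in DKO, and over all genes that was so in either direction for 22.0% and toward lower values for 11.3%. They were Rps9, Rps14, Rps4x and Rps24, all in the list of body proteins. Rps9, a body protein that helps keep decoding accurate, had signals of 17514, 20273 and 28291 in WT and 12335, 12441 and 14342 in DKO. The 3 DKO arrays lay close together and below each WT array, with WT replicate 3 far above the others. The difference of -0.73 ± 0.17 gave an adjusted p of 0.0641 and so did not pass at 0.05, though it would at 0.10, where 3.34% of all genes do. It was -0.53 (adjusted p = 0.128) without WT replicate 3. Quantile normalization (-0.64, adjusted p = 0.0417), array quality weights (-0.73, adjusted p = 0.0480) and the replicate number as a block (-0.73, adjusted p = 0.0230) took it past the threshold, while without an intensity trend adjusted p was 0.318.

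The other probe sets of Rps9 did not show a difference of that size. The second was at 10491, 10691 and 11205 in WT and 8135, 9390 and 10009 in DKO (-0.24 ± 0.14, adjusted p = 0.465), again without overlap. The third, dim at 315 to 829, was at 0.60 ± 0.37 (adjusted p = 0.509). Over the gene's 3 probe sets the mean difference was -0.12 (adjusted p = 0.771).

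Rps14, a small subunit protein known for its loss in the 5q- syndrome of anaemia, was at 25106, 27434 and 27293 in WT and 18913, 23016 and 25071 in DKO. The highest DKO array lay just under the lowest WT array (-0.26 ± 0.13, adjusted p = 0.384). Its second probe set gave 15574, 15726 and 16303 against 10473, 11998 and 13342. There the groups were further apart, at -0.42 ± 0.13 (adjusted p = 0.166). Rps4x, encoded on the X chromosome, was at 23276, 21656 and 22454 against 17836, 18989 and 21489 (-0.21 ± 0.12, adjusted p = 0.451). Rps24, one of the Diamond-Blackfan genes, was at 17668, 17992 and 18433 against 13471, 16479 and 17276 (-0.20 ± 0.13, adjusted p = 0.522). Its next brightest probe sets were at -0.10, -0.06 and 0.07, each with groups that overlapped.

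Rps6, the substrate of the S6 kinases, was measured by a dim probe set at 1078, 810 and 1252 in WT and 955, 808 and 838 in DKO (-0.25 ± 0.25, adjusted p = 0.712). Rpsa, which doubles as a laminin receptor, was at 22010, 24990 and 25131 against 16005, 21884 and 27751 (-0.17 ± 0.18, adjusted p = 0.721). Rps2 and Rps7 were at -0.10 and -0.12, and Rps26, near the mRNA exit, was at 0.17 ± 0.18. Of the 2 body genes outside the symbol rule, Rps3a1 had groups that did not overlap, 28099 ± 666 (SD, n = 3) in WT and 23092 ± 4055 (n = 3) in DKO (-0.30 ± 0.13, adjusted p = 0.348), and Fau was at 0.09 ± 0.18.

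Of the proteins of the small subunit head, Rps3, which lines the mRNA entry, had 29563, 31368 and 30969 in WT and 20569, 24273 and 32166 in DKO. DKO replicates 1 and 2 were below the WT arrays and DKO replicate 3 above them (-0.28 ± 0.15, adjusted p = 0.431). Rps29 had the brightest probe set of all members, with 29406, 31749 and 30377 against 22374, 26541 and 31714 (-0.20 ± 0.13, adjusted p = 0.550). Rps20 (-0.22 ± 0.14), Rps28 (-0.21 ± 0.15) and Rps18 (-0.20 ± 0.15) also had DKO replicate 1 as the lowest array. Rps15 was at -0.07 and Rps10 at 0.09.

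Rps19, the gene most often mutated in Diamond-Blackfan anaemia, was at 3380, 2608 and 3530 in WT and 3382, 4333 and 3004 in DKO (0.17 ± 0.20, adjusted p = 0.770). Its groups overlapped. Of the 20 genes in the Diamond-Blackfan list 11 were measured, and 0 of them passed, 8 being lower and 3 higher with a median of -0.19.

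Rps25, a head protein that viral internal ribosome entry sites use, had the largest difference of all members. Its single-symbol probe set was at 1387, 1323 and 2338 in WT and 2142, 9864 and 3827 in DKO. DKO replicate 2 was far above the rest, and DKO replicate 1 lay under WT replicate 3, so the groups overlapped. The difference of 1.40 ± 0.44 did not pass (adjusted p = 0.160), and its 95% interval ran from 0.45 to 2.36. It was 0.81 (adjusted p = 0.368) without DKO replicate 2.

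**Figure D2:**
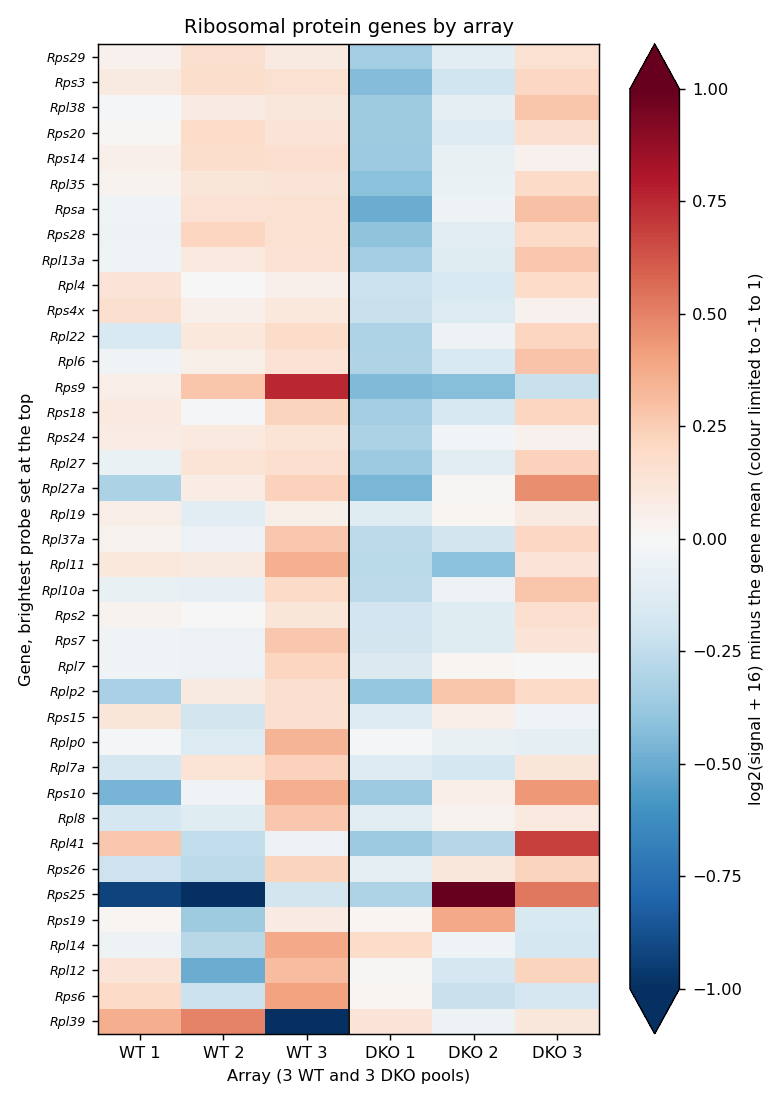
Level of 39 ribosomal protein genes in 3 WT and 3 DKO arrays, as log2(signal + 16) minus the average of the 6 arrays (colour, limited to -1 to 1), with the brightest probe sets at the top. DKO replicate 1 is the lowest array for 26 genes, most of them bright, while Rps9 and Rps25 depart from the rest.

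The members' levels differed as much among the DKO arrays as between genotypes. The array medians of the large subunit differed by -0.12 (DKO minus WT), with an SD over arrays of 0.11 in WT and 0.23 in DKO (n = 3 each), and those of the small subunit by -0.17, with 0.07 and 0.25. DKO replicate 1 was the lowest of the 6 arrays in 26 of 39 genes (66.7%), against 13.3% of all genes. On a scale where the 6 arrays of a gene average 0, the large subunit median was -0.03, 0.06 and 0.18 in the WT arrays and -0.26, -0.08 and 0.19 in the DKO arrays. The small subunit median was 0.04, 0.02 and 0.16 in WT and -0.33, -0.11 and 0.16 in DKO. Both subunits thus had the same low array, and DKO replicate 3 stood level with WT replicate 3. Without DKO replicate 1 the medians were 0.01 (large) and -0.07 (small), and 9 of 21 large and 13 of 18 small subunit genes were lower. Without WT replicate 2 the medians of the ribosomal proteins were -0.11 (large) and -0.17 (small), with 18 of 21 and 14 of 18 lower. In 21 of the 39 genes the profile over 6 arrays correlated above 0.8 with the median of the other members. This is a description over 6 shared arrays. Rps19, Rpl39, Rpl14 and Rps25 correlated below 0.

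Very bright probe sets that list no member symbol had the same low array. They are not all outside the ribosome, as the symbol rule leaves Rps3a1 among them. The TOP gene Eef1a1 is among them too. Among the 45 other probe sets in the brightest 0.2%, the median relative level was 0.06, 0.14 and 0.10 in WT and -0.35, -0.13 and 0.18 in DKO. The 99.9th percentile of signal was 23577, 25940 and 25291 in the WT arrays and 18169, 21255 and 26908 in the DKO arrays. The highest signals on DKO replicates 1 and 2 were 25913 and 29860, against 36286 to 39624 on the other 4 arrays. These values moved with the levels of the bright members, and their part in the result was not tested. The deposited table holds no saturation flag, so whether a spot reached the scanner's limit was not tested either.

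Brightness also separated the members from each other. Of the 39 genes, 25 were in the brightest 1% of probe sets, and 24 of these 25 were lower in DKO, with a median of -0.16. The other 14 had 5 lower and a median of 0.03. Among the 348 other probe sets of the brightest 1%, which also hold Rps3a1, 209 were lower (60.1%). Their median was -0.05, and 4 passed the threshold. Across the 39 genes, mean signal and difference correlated at -0.40 (Pearson) and -0.66 (Spearman), as a description, since all points share the same 6 arrays. The members in the brightest 1% spread little within WT, with a median SD of 0.10 on the log2 scale, and more within DKO, at 0.26. In the 348 other probe sets of the brightest 1% these were 0.11 and 0.21, and over all genes tested 0.34 and 0.31. The count of lower members depended on the scaling too. Median centring took the median of all tested probe sets from -0.05 to 0.06. It left 10 of 21 large and 12 of 18 small subunit genes lower (medians 0.01 and -0.09). Over all genes 41.3% were then lower, with a median of 0.10, so the members still lay below all genes. Quantile normalization left 11 of 21 and 11 of 18 lower, with medians of -0.01 and -0.04. Over all genes 46.9% were lower there, with a median of 0.03.

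**Figure D3:**
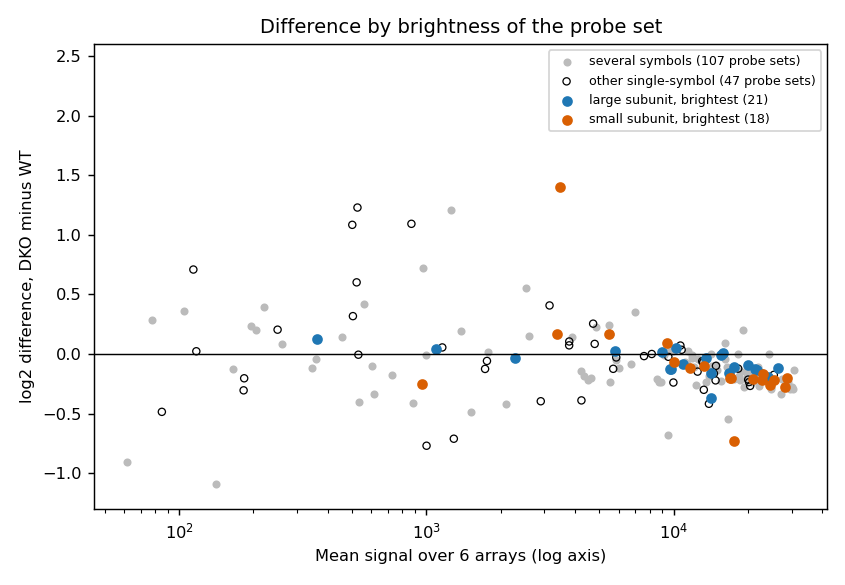
Log2 difference, DKO minus WT, against mean signal over 6 arrays (log axis) for the brightest probe set of each member (blue large, orange small subunit), the 47 other tested single-symbol probe sets (open) and 107 tested ribosomal probe sets with several symbols (grey). Bright probe sets gather slightly below 0 and dim ones scatter to both sides, with Rps25 highest at 1.40.

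Probe sets of 1 gene did not always give like values. Besides the 39 that stand for a gene, 47 member probe sets of 19 genes were tested, of which 0 passed (smallest adjusted p = 0.166, the second probe set of Rps14), 17 were higher and 30 lower, and 15 had a sign opposite to that of the brightest. Of the 17 with a mean signal under 2000, 9 were higher (median 0.02), and of the 30 brighter ones 8 were higher (median -0.12). Rps3 at its dimmer probe set was at 2461, 2558 and 3043 in WT and 3546, 4468 and 2834 in DKO (0.41 ± 0.21, adjusted p = 0.395), opposite to its bright one. Rps9 and Rpl41 each had tested probe sets with differences beyond 0.3 in both directions.

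Some dim probe sets had larger positive differences than the brighter probe sets of the same gene, with 0 of them past the threshold. Rpl41, which encodes the shortest ribosomal protein, was at 6719, 4707 and 5353 in WT and 4328, 4586 and 8950 in DKO at its brightest probe set (0.02 ± 0.26). Its second probe set was at 4473, 6210 and 3697 in WT and 2816, 3221 and 5032 in DKO (-0.39 ± 0.25, adjusted p = 0.520). The groups overlapped in both. The dimmest probe set of Rpl41 was at 476, 106 and 400 in WT and 564, 1158 and 457 in DKO (1.23 ± 0.52, adjusted p = 0.312). The dimmest Rps20 probe set was at 545, 148 and 286 in WT and 644, 1014 and 374 in DKO (1.08 ± 0.47, adjusted p = 0.328), against -0.22 at the brightest. In these dim probe sets of Rpl41 and Rps20, WT replicate 2 was the lowest and DKO replicate 2 the highest array.

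Dim probe sets of Rpl22 and Rps24 had negative values. For Rpl22 the dimmest gave 1353, 793 and 1682 in WT and 803, 885 and 500 in DKO (-0.77 ± 0.33, adjusted p = 0.313). For Rps24 the dimmest tested gave 1748, 923 and 2268 in WT and 861, 930 and 1026 in DKO (-0.71 ± 0.31, adjusted p = 0.324). WT replicate 2 lay near the DKO arrays in both. WT replicate 2 was also the WT pool with the highest summed signal in each list of mature cell markers, including those of T and NK cells and the B lineage.

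**Figure D4:**
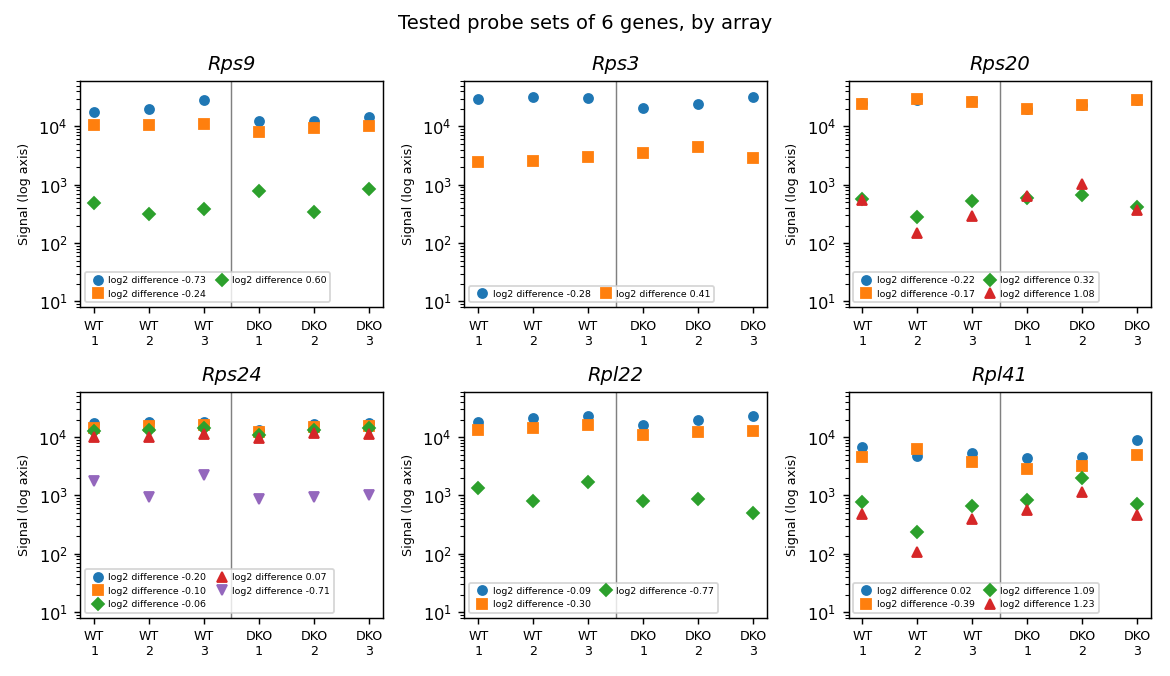
Signal (log axis) of each tested single-symbol probe set of 6 genes in 3 WT and 3 DKO arrays, with the log2 difference, DKO minus WT, of each in the legends. The dimmest probe sets of Rps20 and Rpl41 have positive differences (1.08 and 1.23), and those of Rpl22 and Rps24 negative ones (-0.77 and -0.71).

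The ribosomal probe sets annotated to several symbols had values much like those of the members. Of 107 tested, 81 were lower in DKO (75.7%), against 54.4% of all 27022 probe sets, and the median was -0.14. Of the 107, 0 rose and 1 fell, against 0.807% and 0.563% of all probe sets (1.37% in either direction). The 1 that fell is annotated to a large subunit gene together with a predicted gene. It was at 12334, 10285 and 12402 in WT and 6936, 7484 and 7435 in DKO (-0.67, adjusted p = 0.0409). All 3 DKO arrays, replicate 3 included, lay below the WT arrays, as groups without overlap do in 19.8% of all probe sets in either direction.

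Paralogues of ribosomal proteins, which replace their partner in some tissues, were measured for 3 of 8 genes. Rps27l, the partner of Rps27 and a known p53 target, was at 3181 ± 609 (SD, n = 3) in WT and 4687 ± 611 (n = 3) in DKO. Its groups did not overlap, but the difference of 0.57 ± 0.19 did not pass (adjusted p = 0.199). Rpl22l1, the partner of Rpl22, was at 0.06 ± 0.22, and Rpl7l1, a relative of Rpl7, was at 0.10 ± 0.26. Rpl39l, Rpl3l and Rps4l were too dim to be tested, and Rpl10l and Rpl36al had no single-symbol probe set.

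Other TOP messages, among them those of elongation and initiation factors and of Fau, had values close to those of the ribosomal proteins. They were also bright, with a median mean signal of 16235 against 14172 for the members, and the part of brightness was not tested. Of 15 measured genes 0 passed, 11 were lower and 4 higher, and the median was -0.11. The elongation factor gene Eef1a1 was at 24267, 24168 and 22999 in WT and 16501, 19154 and 24894 in DKO (-0.26, adjusted p = 0.462). DKO replicates 1 and 2 were the lowest arrays and DKO replicate 3 the highest. The smallest p were those of Vim, an intermediate filament gene, at 0.36 ± 0.15 (adjusted p = 0.313), and of Tpt1, a translationally controlled growth factor gene, at -0.27 (adjusted p = 0.405).

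Lists of genes that control or build the ribosome had medians above 0. The list of TORC1, LARP1 and S6 kinases also names Myc, Mycn and Max. In it 0 of 15 measured genes passed, and the direction was mixed. Of the 15, 9 were higher and 6 lower, with a median of 0.14, where 5673 of all 11529 genes were higher. The differences ran from -0.87 to 0.64, so the largest in size was negative. In 8 of the 15 the groups did not overlap, 2 of these being lower in DKO. Over all genes that was so for 22.0% in either direction and for 11.3% toward lower values. Larp1, the TOP binding protein, was at 2766, 2347 and 2690 in WT and 4789, 3464 and 3962 in DKO (0.63 ± 0.19, adjusted p = 0.135). The kinase gene Rps6ka3 was at 2478, 2654 and 2934 against 3950, 4038 and 4547 (0.63 ± 0.17, adjusted p = 0.105). For both the groups did not overlap. Mtor was at -0.14.

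Chaperones and importins of ribosomal proteins were higher in 12 of 14 genes, with a median of 0.29 and 0 past the threshold. Heatr3, which carries Rpl5 and Rpl11 into the nucleus, was at 502, 292 and 679 in WT and 1134, 1001 and 941 in DKO (1.11 ± 0.32, adjusted p = 0.129). Pwp1 was at 0.61 ± 0.19 (adjusted p = 0.158).

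Nucleolar biogenesis genes were higher in 40 of 46, with a median of 0.27, and 1 rose. That gene was Nolc1, a nucleolar phosphoprotein, at 2333, 2379 and 2443 in WT and 4564, 3596 and 5823 in DKO (0.93 ± 0.20, adjusted p = 0.0466). Its groups were far apart, but the call was lost with any array left out other than DKO replicate 2 (adjusted p up to 0.152), without an intensity trend (adjusted p = 0.211), with the mean over its probe sets (0.204), with no filter on low values (0.0869) and with a pseudocount of 1 (0.0562). Mitochondrial ribosomal proteins were higher in 59 of 75 genes, with a median of 0.27 and 0 calls. Mrps18b was at 889 ± 183 (SD, n = 3) in WT and 1574 ± 223 (n = 3) in DKO (0.82 ± 0.24, adjusted p = 0.135), and Mrpl16 was at 0.68 ± 0.21 (adjusted p = 0.148).

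These lists thus had medians on the other side of 0 from the cytosolic ribosomal proteins, and the difference between lists was not tested. Their brightness differed as well, with a median mean signal of 2457 for the nucleolar genes and 986 for the mitochondrial ribosomal proteins, against 14172 for the members. With an array left out the nucleolar median stayed between 0.21 and 0.35 and the mitochondrial one between 0.16 and 0.36.

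**Figure D5:**
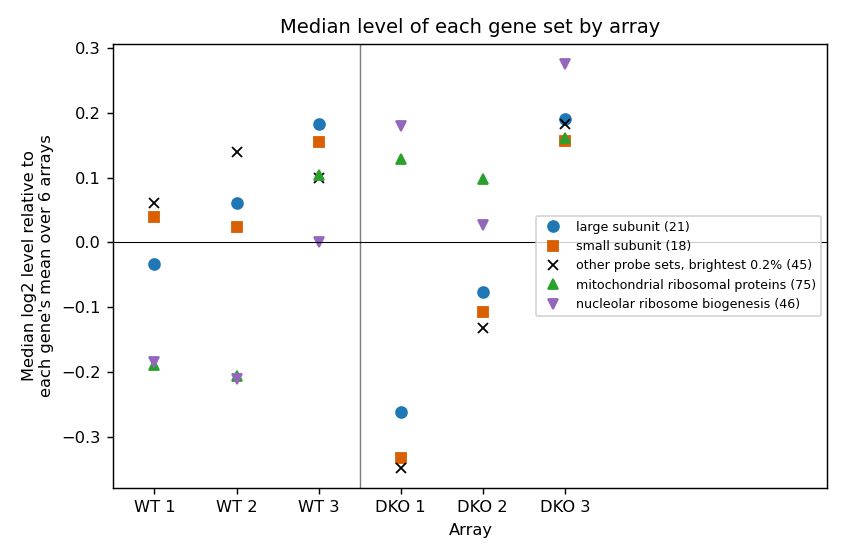
Median log2 level of 5 gene sets in each array, where the 6 arrays of a gene average 0; the number of genes or probe sets is in brackets. Both subunits and the other brightest probe sets are lowest in DKO replicate 1, at -0.26 to -0.35, while the nucleolar and mitochondrial ribosomal sets are above 0 in all DKO arrays.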

How the data were processed

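The authors deposited 1 linear intensity per probe set and array, made with MAS5 per the submitters' processing notes (version not given there). Arrays had been scaled to a mean of 500 after trimming 2% from both tails, which was not altered. Each column's name gave its sample, with 0 columns left over. Of 45101 probe sets, 64 controls were left out. Of the 45037 kept, 34945 have 1 gene symbol in the platform annotation, 932 several and 9160 none; 34741 of the first were matched by gene ID to RefSeq (GRCm38.p6).

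Signals were turned into log2(signal + 16), and probe sets in the dimmest 40% (under a signal of about 53.2) were dropped. The 27022 left went into lmFit and eBayes with an intensity trend (limma 3.58.1, R 4.3.3), two-sided, with Benjamini-Hochberg adjustment over the 27022 and a threshold of 0.05. "Rose" and "fell" are used past it. Differences carry standard errors, and signals carry SD. The fit was tested on simulated arrays. No set test was run. The members and lists were chosen with earlier results of these data known; mitochondrial ribosomal genes were taken by symbol. Named are members past the threshold, the 5 highest and 5 lowest differences and the 3 brightest and 3 dimmest of each subunit, members with discordant probe sets, 10 chosen for their role, and in each other list up to 4 calls or the 2 smallest p; others were named after their values were seen.

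Other settings tried were a pseudocount of 1 or 64, a filter of 60% or none, quantile normalization or median centring, eBayes with no trend, quality weights for arrays, the replicate number as a block, leaving out single arrays, a threshold of 0.10, the mean over probe sets, probe sets without a suffix, the second brightest probe set, and members without the brightest 1%. Plots were made in Python 3.11.15 (matplotlib 3.10.9).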

Additional observations from a re-analysis of the deposited data

How the results depend on the processing

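The count of ribosomal protein genes past the threshold, 0 of 39, was 1 (Rps9) with quantile normalization, with array quality weights, with the replicate block and at a threshold of 0.10, and 0 with each array left out. The replicate numbers were not shown to pair the pools, as same-numbered pools correlated at 0.14, -0.03 and 0.05 in their deviations from the group means; the block changed 1 member call, that of Rps9 (adjusted p = 0.0230), and the 0 calls became 1. With an array left out the large subunit median lay between -0.22 and 0.01 and the small subunit median between -0.28 and -0.07, with 9 to 19 of 21 and 13 to 15 of 18 genes lower. The large subunit count of 15 was 9 without DKO replicate 1. Among probe sets without a suffix for several transcripts, 6 of 10 large and 5 of 10 small subunit genes were lower, and the small subunit median was 0.10. With members of the brightest 1% left out, 3 of 8 and 2 of 6 were lower, and the small subunit median was 0.13. At the second brightest probe set 7 of 7 large subunit genes were lower. Under quantile normalization Rpl35, Rps20 and Rps29 turned to 0.0078, 0.045 and 0.036. With the mean over probe sets Rps20 and Rps3 turned to 0.25 and 0.064. Among probe sets without a suffix Rps20, Rps3 and Rps9 were at 1.08, 0.41 and 0.60, and Rps3 was at 0.41 at its second brightest. With an array left out Sesn2 ranged from -0.92 to 1.25. A turn was counted only where the value under the main setting exceeded its standard error. Smaller main values could change sign without being counted, such as Rpl38 to 0.10 and Rpl13a to 0.04 under quantile normalization. Of 798 values of 42 named genes under alternatives, 774 were counted by this rule as unchanged in direction and side of the threshold. The number of arrays limits the precision, and pools of mice are the replicates. The causes of these changes were not tested.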

Other observations

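Dim probe sets of the members were often highest in DKO replicate 2. Of the 17 other tested member probe sets with a mean signal under 2000, 6 (35.3%) had their highest value there, against 15.4% of all 23198 tested probe sets under that signal. The pattern was noticed in these data, several of the 17 belong to the same gene, and it was not tested. Rps25 had its highest value, 9864, in the same array, and so had Rps19, at 4333.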
